A study of Danio rerio with 24 samples.

Results

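GFP+ cells sorted from zebrafish embryos at 4 days post fertilization (dpf) were compared with GFP+ cells sorted at 3 dpf. All embryos were homozygous for Tg(XlEef1a1:GFP)s854, a transgene that places GFP under a sequence of the Xenopus laevis Eef1a1 gene, and the fluorescence marks organs that form from the endoderm. The comparison used the arrays titled as GFP+ at these ages, 3 at 4 dpf and 3 at 3 dpf, or 6 of the 24 arrays in all. GFP- cells of the same line, 3 arrays at 4 dpf and 3 at 3 dpf, gave the same step in the rest of the embryo. GFP+ arrays at 2 and 6 dpf, 3 each, gave the levels before and after.

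Every group received 1-phenyl-2-thiourea from 1 dpf against pigment, and was dissociated with trypsin, collagenase and proteinase K before the sort. The RNA was amplified to cDNA by the SPIA method and hybridized to a zebrafish Affymetrix array. GFP+ and GFP- samples share replicate numbers, but nothing says that equal numbers mark 1 sort or that replicates came from separate clutches, so p-values reflect only how far these samples scatter, which may be technical. Each gate is a mixture of cells: the sorted GFP+ cells hold liver, pancreas and gut together, and a higher score in such a mixture can come from more cells of a type or from more RNA per cell, which cannot be told apart here.

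The digestive system of the zebrafish forms from an endodermal rod that gives rise to the gut tube and to buds for the liver and pancreas. Hepatocytes export plasma proteins, clotting factors and lipoproteins and detoxify compounds, acinar cells of the pancreas make digestive enzymes as inactive zymogens, and enterocytes digest and absorb nutrients. During the days compared here these organs grow and mature while the larva still lives on yolk, ahead of its first meals.

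The deposited value is a score for each probe set, scaled so that every array has a median of 0 and a standard deviation of 1. Differences are therefore in units of 1 array SD, given as 4 dpf minus 3 dpf with the standard error (SE) of the fit, and no fold change can be stated. This SE pools the spread within all 8 groups of arrays. It can understate the scatter of the 4 dpf arrays for genes that vary little in the other groups. A gene is represented by its brightest probe set. A gene was called when its adjusted p in limma's moderated test over all 15502 probe sets was under 0.05. Levels of different genes are not compared, since probes differ in brightness.

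The gate held the defining genes of the digestive organs. Fatty acid binding protein fabp10a of the liver averaged 3.98 in GFP+ and 3.20 in GFP- cells at 4 dpf, and 3.67 and 1.85 at 3 dpf. Trypsin, prss1, of the pancreas averaged 3.96 and 3.14 in these gates at 4 dpf, and 3.43 and 1.47 at 3 dpf. The intestinal fatty acid binding protein fabp2 averaged 3.29 and 2.13 at 4 dpf, and 3.08 and 1.35 at 3 dpf. All were higher in GFP+ cells at both ages, and their transcripts also reached GFP- arrays.

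The second 4 dpf array stood apart from the other 2 of its group. Over all probe sets the 4 dpf arrays correlated on average 0.955, 0.930 and 0.957 with their group, and the 3 dpf arrays 0.971, 0.965 and 0.969. The second 4 dpf array also had the lowest median score of the zymogen list, 3.31, 2.10 and 3.17 on the 3 arrays, and the highest of the epidermis list, 0.27, 0.86 and 0.46. The GFP- array of the same number and age stood apart in the same way. Zymogen medians of GFP- cells at 4 dpf were 1.87, 0.14 and 2.53, and epidermis medians 1.49, 1.99 and 1.53. The score of the 25th percentile of an array was higher at 4 dpf, at -0.41, -0.38 and -0.41, than at 3 dpf, at -0.51, -0.49 and -0.48. Probe sets below the 25th percentile of mean score had a median difference of 0.11 array SD, against 0.02 after quantile normalization, which gives all arrays one distribution. GAPDH control probe sets for the 3′ and 5′ ends differed by 0.05, 0.69 and 0.03 at 4 dpf and by 0.30, 0.10 and 0.43 at 3 dpf. These ranges overlapped only through the second 4 dpf array, which had the largest value of all. The other 2 arrays at 4 dpf lay below every 3 dpf array.

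Between the ages 705 of 8793 genes were called, 8.02% of those tested: 395 were higher at 4 dpf (4.49%) and 310 lower (3.53%). Counts of called list members below are to be read beside these shares. By probe set 1068 were called (6.89%), 593 higher and 475 lower, so that 55.5% were higher. After quantile normalization 995 were called, 452 higher and 543 lower, and 45.4% were higher. By gene, 7.49% were called after that step, 3.34% higher and 4.15% lower. Which side has more calls thus turns with the scaling, while the 30 genes named below by the size of their difference kept both direction and call under it. The count fell to 508 without the second 3 dpf array, to 486 without the third 3 dpf array and to 338 without the third 4 dpf array, and came to 1565 without the second 4 dpf array. Scores of the 2 ages did not overlap for 2601 genes (29.6%), 1756 higher and 845 lower (9.61%).

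The genes with the largest higher scores at 4 dpf included products of the exocrine pancreas and the liver. Of the 15 largest, pla2g1b, ctrb.2, amy2a and cpa1 encode pancreatic digestive enzymes, and hpxa, f7i, apoea and a2m2f belong to families of secreted plasma proteins. The cytochromes P450 cyp2ad2 and cyp3a65, the carboxylesterase ces3 and the guanine deaminase gda are enzymes of small molecule metabolism. The 15 largest lower scores were more mixed and held krt5 of the epidermis, col2a1a of cartilage and notochord, the neural transcription factor zic1 and the centriole assembly gene sass6.

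**Figure D1:**
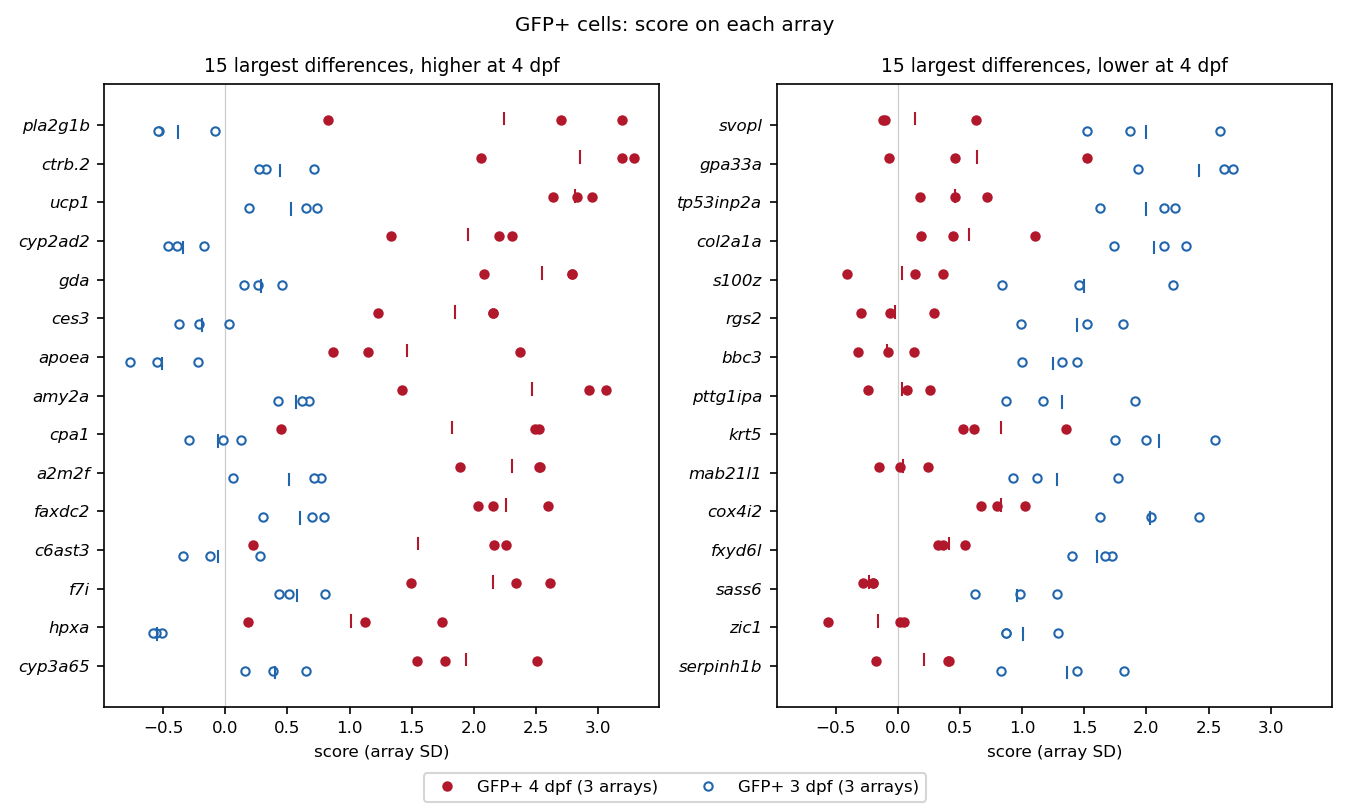
Scores (array SD, horizontal) of the 15 genes with the largest higher and the 15 with the largest lower difference in GFP+ cells, chosen by those differences. Filled points are the 3 arrays at 4 dpf, open points the 3 arrays at 3 dpf, and ticks the means. The ages overlapped in this plot for c6ast3 alone, where the second 4 dpf array lies at 0.22.

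Zymogen genes were the list with the largest median difference in GFP+ cells among the 33 lists, 1.09 array SD against 0.07 over all genes. In GFP- cells the median difference of this list was larger, 1.47. In GFP+ cells all 20 measured members had positive differences, against 5357 of 8793 genes (60.9%), and 6 were called. The phospholipase A2 gene pla2g1b scored 3.19, 0.83 and 2.70 on the 4 dpf arrays, against -0.08, -0.53 and -0.54 on the 3 dpf arrays. The 3 dpf arrays lay near the bottom of the scale and every 4 dpf array was above them, with a difference of 2.62 ± 0.47 array SD (adjusted p = 0.00239). With only the 6 arrays compared pla2g1b was not called (adjusted p = 0.0749). The chymotrypsinogen gene ctrb.2 scored 3.29, 2.06 and 3.19 on the 4 dpf arrays, against 0.71, 0.33 and 0.27 on the 3 dpf arrays. Again the ages did not overlap, and the second 4 dpf array was the lowest of its group (difference 2.41 ± 0.41, adjusted p = 0.00168).

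Amylase and carboxypeptidase followed the same order of arrays. Scores of amy2a, which encodes the starch-splitting amylase, were 3.06, 1.42 and 2.93 on the 4 dpf arrays, against 0.67, 0.62 and 0.42 on the 3 dpf arrays, a difference of 1.90 ± 0.42 (adjusted p = 0.0099). Scores of cpa1, for carboxypeptidase A1, were 2.52, 0.45 and 2.49 on the 4 dpf arrays, against 0.13, -0.02 and -0.29 on the 3 dpf arrays, a difference of 1.88 ± 0.43 (adjusted p = 0.0118). The ages were separate for both genes, and in both the second 4 dpf array stood closest to 3 dpf. The other called members were the elastase gene ela3l, at 1.22 ± 0.34 (adjusted p = 0.0338), and the amylase gene amy2al1, at 0.86 ± 0.25 (adjusted p = 0.0411).

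The members that did not pass the test included the zymogens that already scored high at 3 dpf. Trypsin, prss1, averaged 3.96 at 4 dpf and 3.43 at 3 dpf, a difference of 0.53 ± 0.30 (adjusted p = 0.313). For the chymotrypsinogen gene ctrb.1 the means were 3.65 and 3.13 at these ages (adjusted p = 0.351), and for carboxypeptidase B, cpb1, 3.21 and 2.74 (adjusted p = 0.406). The elastase genes ela2 and ela2l had larger differences, 1.26 ± 0.39 and 1.12 ± 0.42, but wide spreads, with adjusted p = 0.0565 and 0.119. Scores of ela2 were 3.83, 2.83 and 3.84 on the 4 dpf arrays, against 2.53, 1.88 and 2.31 on the 3 dpf arrays. The ages did not overlap, and the second 4 dpf array stood closest to 3 dpf.

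Without the second 4 dpf array 13 of 20 zymogen genes were called and the median difference was 1.47. Leaving out the first or the third 4 dpf array left 2 calls in either case. With only the 6 arrays compared 1 zymogen gene was called. Of 8 acinar factors and support genes 7 had positive differences, with a median of 0.36. None was called higher by limma, 2 passed an unadjusted p of 0.05 in that direction, and 1 was called without the second 4 dpf array. The member called lower was insm1b, an endocrine factor that stands in the list of hormones too. The acinar transcription factor ptf1a averaged 0.09 at 4 dpf and -0.14 at 3 dpf (adjusted p = 0.601). The secretory stress factor xbp1 averaged 2.39 and 1.78 at these ages (adjusted p = 0.0516).

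**Figure D2:**
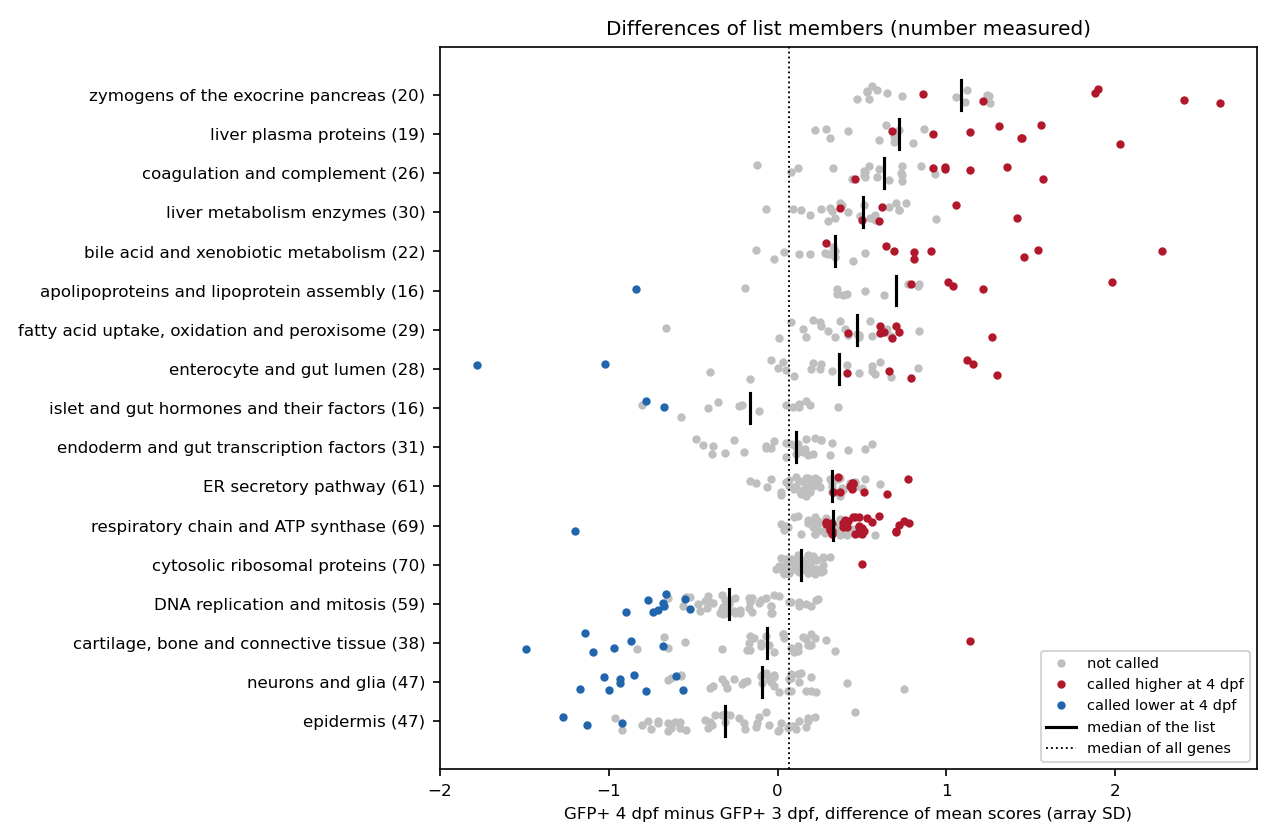
Difference of mean scores in GFP+ cells (4 dpf minus 3 dpf, array SD) for the members of 17 gene lists, with the number measured in brackets. Each point is a gene, colored where called, the bars are list medians and the dotted line the median of all genes (0.07). Zymogen and liver lists lie to the right, cell division and epidermis to the left.

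Each of the liver lists had members called higher at 4 dpf and none called lower. The lipid transport list, some of whose members also stand in the intestinal and yolk lists, had 1 called lower. Its median scores on the 4 dpf arrays were 1.58, 2.10 and 1.80, highest on the second. Among 19 genes of the liver plasma protein list, 8 were called higher and none lower, with a median difference of 0.72 array SD. The list also holds genes that are no plasma proteins, such as the carboxylesterase gene ces3 and fabp10a. Hemopexin, hpxa, which binds free heme, scored 1.74, 0.18 and 1.12 on the 4 dpf arrays, against -0.51, -0.56 and -0.58 on the 3 dpf arrays. All 3 dpf arrays were near the floor and all 4 dpf arrays above them, with a difference of 1.56 ± 0.23 (adjusted p = 0.000724). The carboxylesterase gene ces3 scored 2.15, 1.23 and 2.15 on the 4 dpf arrays, against -0.21, 0.03 and -0.37 on the 3 dpf arrays. These did not overlap either, and the difference was 2.03 ± 0.32 (adjusted p = 0.00093).

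Further plasma proteins that rose were the fetuin fetub by 1.44 ± 0.35 (adjusted p = 0.0165), ceruloplasmin, cp, which carries copper, by 1.14 ± 0.31 (adjusted p = 0.0308), and the inter-alpha-trypsin inhibitor chains itih3a.1 by 1.45 ± 0.23 and itih3b.1 by 1.31 ± 0.25. The retinol carrier rbp4 rose by 0.92 ± 0.27 (adjusted p = 0.0414). As with the zymogens, genes at a high score at 3 dpf gave small differences that did not pass: transferrin, tfa, averaged 3.73 and 3.51 at 4 and 3 dpf, and the liver fatty acid binding protein fabp10a 3.98 and 3.67. Without the second 4 dpf array 10 members were called, and without the second 3 dpf, the third 3 dpf or the third 4 dpf array 4.

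Of 26 clotting and complement genes, 7 were called higher and none lower (median difference 0.63). The clotting factor IX gene f9a scored 0.26, 0.50 and 0.63 on the 4 dpf arrays, against -0.44, -0.54 and -0.60 on the 3 dpf arrays. Its 4 dpf arrays were tightly grouped above the 3 dpf arrays, and the difference of 0.99 ± 0.11 had the lowest adjusted p of the list, 6.55e-05. The factor VII relative f7i rose by 1.57 ± 0.30 (adjusted p = 0.00346) and factor VII itself, f7, by 1.14 ± 0.26 (adjusted p = 0.0115). In the complement system, which tags and lyses microbes, c3a.6 rose by 1.36 ± 0.29 (adjusted p = 0.0078) and c4 by 0.99 ± 0.21 (adjusted p = 0.00706). The 3 fibrinogen chains were not called: fga differed by 0.93 ± 0.32, fgb by 0.73 ± 0.37 and fgg by 0.74 ± 0.38, with adjusted p = 0.0835, 0.261 and 0.273. Their scores at 3 dpf, 2.01, 2.61 and 2.80, were already high on the array scale. The call count of the list was 2 without the third 4 dpf array and 11 without the second.

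Of 30 metabolic enzymes of the liver, 6 were called higher and none lower, with a median difference of 0.50. Uridine phosphorylase, upp2, scored 1.71, 0.16 and 2.04 on the 4 dpf arrays, against -0.20, -0.20 and 0.05 on the 3 dpf arrays, with no overlap and a difference of 1.42 ± 0.38 (adjusted p = 0.0297). Phosphoenolpyruvate carboxykinase, pck1, which controls gluconeogenesis, scored 1.79, 1.82 and 1.71 on the 4 dpf arrays, against 0.68, 1.05 and 0.41 on the 3 dpf arrays. The ages were separate, with a difference of 1.06 ± 0.22 (adjusted p = 0.00733). The aminotransferases gpt and got1 and cystathionine gamma-lyase, cth, rose by 0.62 ± 0.13, 0.50 ± 0.11 and 0.60 ± 0.12. The tryptophan dioxygenase gene tdo2a had a larger difference, 0.94 ± 0.30, that did not pass (adjusted p = 0.0608). Without the second 4 dpf array the list had 12 calls, and without the third 3 dpf array 2.

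The detoxification list was the steadiest of the liver lists when single arrays were left out. Of 22 genes of bile acid and xenobiotic metabolism, 9 were called higher and none lower, and the count stayed between 7 and 9 without any 1 array. The P450 gene cyp2ad2 scored 2.20, 1.33 and 2.31 on the 4 dpf arrays, against -0.17, -0.39 and -0.46 on the 3 dpf arrays. The 4 dpf arrays were all far above the 3 dpf arrays (difference 2.28 ± 0.28, adjusted p = 0.000144), and its other 2 probe sets differed by 2.27 and 2.18. For cyp3a65 the scores were 1.54, 2.51 and 1.77 on the 4 dpf arrays, against 0.65, 0.38 and 0.16 on the 3 dpf arrays, a difference of 1.54 ± 0.24 (adjusted p = 0.00093). The sterol hydroxylase cyp27a1.1, an enzyme of bile acid synthesis, rose by 0.81 ± 0.12 (adjusted p = 0.000793), and the epoxide hydrolase ephx1 by 0.91 ± 0.11 (adjusted p = 0.000144). The bile acid enzyme cyp8b1.1 averaged 2.99 at 4 dpf and 2.70 at 3 dpf and did not pass (adjusted p = 0.588).

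Genes of lipid transport mostly had positive differences, 14 of 16, against 60.9% of all genes. Lists of other cells had like shares: 13 of 14 vessel, 23 of 26 leukocyte and 14 of 16 red blood cell genes. Of 16 genes for apolipoproteins and lipoprotein assembly, 5 were called higher and 1 lower (median 0.70). Apolipoprotein E in the form apoea scored 0.87, 2.37 and 1.15 on the 4 dpf arrays, against -0.22, -0.55 and -0.77 on the 3 dpf arrays, from the floor at 3 dpf with no overlap and a difference of 1.98 ± 0.33 (adjusted p = 0.00155). The other form, apoeb, averaged 1.48 at 4 dpf and 1.10 at 3 dpf and did not pass (adjusted p = 0.21). The lipoprotein genes apoc1, apoa4b.2 and apoa4a rose by 1.22 ± 0.30, 1.04 ± 0.27 and 1.01 ± 0.20. The member called lower was lrp1aa, a receptor that takes up lipoprotein remnants, at -0.84 ± 0.24 (adjusted p = 0.0407). That call was lost after quantile normalization (adjusted p = 0.0746) and without the second 4 dpf array (adjusted p = 0.073). After quantile normalization 3 members of the list were called higher. Without the second 3 dpf, the third 3 dpf, the first 4 dpf or the third 4 dpf array 2 were, and without the second 4 dpf array 7.

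In the intestinal list 6 of 28 genes were called higher and 2 lower. The secreted chitinases chia.6 and chia.2, which digest chitin, and the brush border protease meprin, mep1a.1, were the largest of those that rose. Scores of mep1a.1 were 0.25, 1.96 and 0.92 on the 4 dpf arrays, against 0.15, -0.07 and -0.42 on the 3 dpf arrays, with no overlap and a difference of 1.16 ± 0.31 (adjusted p = 0.0269). Leaving out the second 4 dpf array, the difference of mep1a.1 was 0.70 and not called (adjusted p = 0.1), and that of chia.2 was 0.67 (adjusted p = 0.182). Scores of chia.6 were 1.32, 0.40 and 1.40 on the 4 dpf arrays, against -0.07, -0.20 and -0.51 on the 3 dpf arrays, a difference of 1.30 ± 0.20 (adjusted p = 0.00093). The glucose transporter slc2a2 of liver and gut rose by 0.66 ± 0.18 (adjusted p = 0.0287). The peptide transporter slc15a1b had a mean of 1.27 at 4 dpf and 0.43 at 3 dpf, which did not pass (adjusted p = 0.0719).

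Both genes of the intestinal list that fell had been high at 3 dpf. The surface antigen gpa33a, whose mammalian relative marks intestinal epithelium, scored 0.46, 1.52 and -0.07 on the 4 dpf arrays, against 1.93, 2.62 and 2.70 on the 3 dpf arrays. Every 4 dpf array was below every 3 dpf array (difference -1.78 ± 0.35, adjusted p = 0.00479). Its signal was not confined to the digestive gate: GFP- cells averaged 2.17 at 4 dpf and 1.94 at 3 dpf, GFP+ cells 0.64 and 2.42. The steps of the 2 gates differed by -2.01 ± 0.50, which did not pass (adjusted p = 0.107). The mucus cell chaperone agr2 scored 0.67, 1.27 and 0.44 on the 4 dpf arrays, against 1.75, 1.43 and 2.24 on the 3 dpf arrays, a difference of -1.02 ± 0.26 (adjusted p = 0.0244). The median score of the intestinal list was 1.08, 2.03 and 1.27 on the 4 dpf arrays and 1.65, 1.38 and 1.06 on the 3 dpf arrays, overlapping, with the second 4 dpf array the highest of all 6. Without that array 3 members were called higher and the median difference was 0.17, against 0.36 with it. With quantile normalization as well these were 2 and 0.06. Without the second 3 dpf array 2 were called higher, and without the third 3 dpf or the third 4 dpf array 1.

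Endocrine genes gave no call for a higher score. Of 16 genes for islet and gut hormones and their factors none was called higher, and 1 passed an unadjusted p of 0.05 in that direction. The 2 called lower were 12.5% of the list, against 3.53% of all genes called lower and 8.02% called either way. The endocrine transcription factors isl1a and insm1b fell, with differences of -0.78 ± 0.20 (adjusted p = 0.02) and -0.67 ± 0.15 (adjusted p = 0.0108). Both also act in neurons, and isl1a stands in the neuron list too. Insulin, ins, averaged 2.20 at 4 dpf and 1.85 at 3 dpf (adjusted p = 0.552), and glucagon, gcga, 2.46 and 2.87 (adjusted p = 0.324). Neither call of the list was made without the third 3 dpf array or without the third 4 dpf array.

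No transcription factor of the endoderm list was called, of 31 measured, by limma, and 5 passed an unadjusted p of 0.05, 4 higher and 1 lower. The median difference was 0.11. Hepatic hhex had the largest positive difference, 0.56 ± 0.24 (adjusted p = 0.18), and hnf4a differed by 0.21 ± 0.14 (adjusted p = 0.401). The liver and gut factor foxa3 averaged 0.82 at 4 dpf and 1.07 at 3 dpf (adjusted p = 0.307), and pdx1, needed for pancreas, -0.37 and -0.35 (adjusted p = 0.949). A miss of the threshold does not show equal levels. Simulated differences of 0.5 array SD were recovered for 37.3% of 67 probe sets and differences of 1 array SD for 94.0%. No simulated array stood apart from its group, so recovery on the measured arrays may be lower. The simulation also gave fewer calls, 161 probe sets against 1068, which makes the adjusted threshold stricter there and works the other way. Without the second 4 dpf array 2 members were called higher and 1 lower.

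Of 67 genes of the Hedgehog, Notch, Wnt and Bmp pathways 4 were called lower and 2 higher, 8.96% of the list against 8.02% of all genes. In this list 38 members had a mean score below 0, and with only means of at least 0 tested 5 of 29 were called lower and 1 higher. Leaving out the second 4 dpf array gave 7 lower and 2 higher calls, and no member was called higher when any 1 of the other 5 arrays was left out. The secreted Wnt inhibitor sfrp5 scored 1.00, 0.79 and 0.90 on the 4 dpf arrays, against 1.85, 1.84 and 2.10 on the 3 dpf arrays, with no overlap and a difference of -1.04 ± 0.17 (adjusted p = 0.00155). The Hedgehog ligand shha scored 0.20, 0.19 and -0.01 on the 4 dpf arrays, against 0.86, 0.90 and 0.94 on the 3 dpf arrays, a difference of -0.78 ± 0.21 (adjusted p = 0.0328), a call lost after quantile normalization (adjusted p = 0.0538). The Notch modifier lfng and the Notch ligand jag2b fell, with differences of -0.76 ± 0.15 and -0.64 ± 0.12. The Wnt receptor fzd8a rose by 0.46 ± 0.14 (adjusted p = 0.0469) and the Notch ligand dlc by 0.44 ± 0.12 (adjusted p = 0.0267), and dlc lost the call after quantile normalization (adjusted p = 0.0538).

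Of 61 genes of the secretory pathway in the endoplasmic reticulum, 11 were called higher and none lower, 57 had positive differences, and the median was 0.32. The translocon-associated protein ssr1 scored 2.17, 1.62 and 2.39 on the 4 dpf arrays, against 1.33, 1.21 and 1.34 on the 3 dpf arrays. All 4 dpf arrays were above the 3 dpf arrays (difference 0.77 ± 0.14, adjusted p = 0.00282). The GTPase sar1b, which starts transport vesicles, rose by 0.65 ± 0.12 (adjusted p = 0.00382), and the glycosylation subunit ddost by 0.44 ± 0.09 (adjusted p = 0.00645). After quantile normalization 6 were called and the median was 0.18. Without the second 4 dpf array there were 22 calls, and without the third 4 dpf array 3. The chaperone hspa5, or BiP, averaged 3.26 and 2.88 and did not pass (adjusted p = 0.128).

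As deposited, the respiratory chain gave the largest number of called members of the 33 lists. Of 69 subunit genes of the electron transport complexes and ATP synthase, 31 were called higher and 1 lower, and 68 had positive differences. The differences were small, with a median of 0.33 array SD. The complex I subunit ndufv2 scored 2.27, 2.38 and 2.79 on the 4 dpf arrays, against 1.87, 1.45 and 1.77 on the 3 dpf arrays. The ages did not overlap, with a difference of 0.78 ± 0.15 (adjusted p = 0.00442). Among complex III genes uqcrc2a rose by 0.60 ± 0.14 (adjusted p = 0.0105), and among ATP synthase genes atp5f1c by 0.50 ± 0.12 (adjusted p = 0.0159).

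This count depended on the scaling. After quantile normalization 7 members were called higher and 1 lower, fewer than the 9 of the cell division list, and the median was 0.18, and ndufv2 kept its call at a difference of 0.69 (adjusted p = 0.0134) while atp5f1c lost it at 0.34 (adjusted p = 0.146). Without the second 3 dpf array 5 were called higher, against 8 of the bile acid and xenobiotic list, without the third 4 dpf array 7 and without the first 4 dpf array 18. Beside them, 70 cytosolic ribosomal protein genes, whose scores are also near the top of the scale, had a median difference of 0.14 as deposited and of -0.05 after quantile normalization, so that their direction turned with the scaling, although 69 of them had positive differences as deposited. Among these 1 was called, rpl36, at 0.50 ± 0.12, and it was not called after quantile normalization (adjusted p = 0.165).

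**Figure D3:**
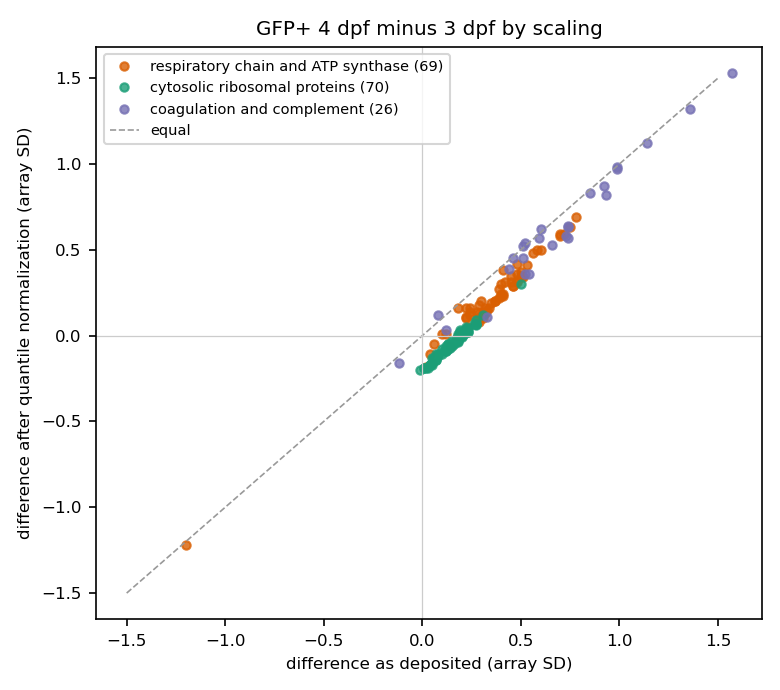
Difference in GFP+ cells (4 dpf minus 3 dpf, array SD) as deposited, horizontal, and after quantile normalization, vertical, for 69 respiratory chain, 70 ribosomal protein and 26 clotting and complement genes. Points under the dashed line lose height after normalization: ribosomal protein genes scatter around 0, most respiratory chain genes stay above 0, and cox4i2 lies alone at -1.20.

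One respiratory chain gene moved against its list. The gene cox4i2, which encodes an alternative form of subunit 4 of cytochrome c oxidase that in mammals is induced by low oxygen, scored 0.80, 1.02 and 0.67 on the 4 dpf arrays, against 1.63, 2.04 and 2.42 on the 3 dpf arrays. Every 4 dpf array was below every 3 dpf array, and the difference was -1.20 ± 0.27 (adjusted p = 0.0115), with -1.22 after quantile normalization. In GFP- cells cox4i2 scored 2.79, 2.42 and 2.52 at 4 dpf and 2.07, 2.68 and 2.44 at 3 dpf, a difference of 0.18 ± 0.27 (adjusted p = 0.948). The difference between the steps of the 2 gates was -1.38 ± 0.39 and did not pass (adjusted p = 0.175). The call in GFP+ cells was lost without the third 3 dpf array and without the third 4 dpf array.

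Uncoupling protein ucp1, a carrier of the inner mitochondrial membrane, was the third largest of the genes that rose and had the lowest adjusted p of the 15. It scored 2.83, 2.64 and 2.95 on the 4 dpf arrays, against 0.65, 0.74 and 0.19 on the 3 dpf arrays. The 4 dpf arrays were within a narrow range far above 3 dpf, with a difference of 2.28 ± 0.22 (adjusted p = 1.33e-05). In GFP- cells it was also higher, by 1.65 ± 0.22 (adjusted p = 0.00052).

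Of 29 genes of fatty acid uptake, oxidation and the peroxisome 28 had positive differences. The share was 60.9% over all genes, and 13 of 14 vessel genes were positive. Of the 29 genes 8 were called higher and none lower, with a median difference of 0.47. The desaturase fads2, which makes polyunsaturated fatty acids, scored 2.25, 1.73 and 2.37 on the 4 dpf arrays, against 1.12, 1.00 and 0.43 on the 3 dpf arrays, with no overlap and a difference of 1.27 ± 0.24 (adjusted p = 0.00329). The medium and long chain acyl-CoA dehydrogenases acadm and acadl rose by 0.61 ± 0.14 and 0.61 ± 0.12, catalase, cat, by 0.70 ± 0.12, and the peroxisomal enzyme hsd17b4 by 0.72 ± 0.20. The acyl-CoA synthetase acsl1a differed by -0.66 ± 0.20, which did not pass as deposited (adjusted p = 0.0515) and did after quantile normalization (adjusted p = 0.0323). The list had 3 calls without the third 4 dpf array, 5 without the third 3 dpf array and 12 without the second 4 dpf array.

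Glycolysis genes had calls both ways, in numbers that turned with the scaling. Of 28, 4 were called higher and 2 lower, and the median difference of the list was 0.10. After quantile normalization 1 was called higher and 4 lower. With 1 array left out, 2 to 4 were called higher and 1 to 6 lower, the 6 without the second 4 dpf array and the 2 without the second 3 dpf, the third 3 dpf, the first 4 dpf or the third 4 dpf array. Lactate dehydrogenase ldhbb scored 1.72, 0.55 and 1.61 on the 4 dpf arrays, against 0.01, -0.17 and -0.22 on the 3 dpf arrays. The ages were separate, with a difference of 1.42 ± 0.25 (adjusted p = 0.00249). Phosphoglycerate kinase, pgk1, triosephosphate isomerase, tpi1b, and phosphoglycerate mutase, pgam1a, rose by 0.64 ± 0.17, 0.41 ± 0.08 and 0.36 ± 0.11, and none of these 3 kept the call after quantile normalization. Aldolase C, aldocb, fell by 0.61 ± 0.17 array SD (adjusted p = 0.0354), as did the phosphofructokinase gene pfkpa, at -0.61 ± 0.12 (adjusted p = 0.00415). Pyruvate kinase showed the same division without passing as deposited: the liver form pklr differed by 0.59 ± 0.23 (adjusted p = 0.143) and pkma by -0.56 ± 0.18 (adjusted p = 0.0658).

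Cell division genes were lower at 4 dpf where any was called. Of 59 genes of DNA replication and mitosis 9 were called lower and none higher, with a median difference of -0.29. On the 4 dpf arrays the median score of the list was 0.56, 0.50 and 0.52, against 0.94, 0.88 and 0.95 on the 3 dpf arrays. These ranges were narrow and separate. The mitotic kinase plk1 scored 0.55, 0.37 and 0.19 on the 4 dpf arrays, against 1.29, 1.34 and 1.17 on the 3 dpf arrays, a difference of -0.90 ± 0.14 (adjusted p = 0.00124). Topoisomerase top2a scored 0.26, 0.13 and -0.04 on the 4 dpf arrays, against 0.82, 0.99 and 0.84 on the 3 dpf arrays, a difference of -0.77 ± 0.10 (adjusted p = 0.000296). Both genes were lower on every 4 dpf array than on any 3 dpf array.

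Most of the called members act in mitosis: plk1, cdc20, birc5a, ncapg, kif23, mad2l1, top2a and ccna2 do, and the flap endonuclease fen1 acts in replication. Of the replication helicase genes mcm2, mcm3, mcm4, mcm5, mcm6 and mcm7 none was called, with differences from -0.38 ± 0.19 for mcm2 to 0.13 ± 0.14 for mcm6. The count of the list ranged from 5 without the third 4 dpf array to 11 without the second, and the median from -0.31 to -0.27; mad2l1 was not called without the second 4 dpf array (adjusted p = 0.093). The centriole gene sass6, outside the list, scored -0.20, -0.28 and -0.20 on the 4 dpf arrays, against 0.62, 0.98 and 1.28 on the 3 dpf arrays, with a difference of -1.19 ± 0.19 (adjusted p = 0.00125). In ribosome biogenesis and translation 5 of 50 genes were called lower and none higher. They were 10.0% of the list, against 3.53% of all genes called lower and 8.02% called either way. Among them was bop1 at -0.56 ± 0.12 (adjusted p = 0.00693), and 1 was lower when the third 4 dpf array was left out. In GFP- cells the division list had 0 members called lower and 1 higher, with a median difference of -0.12. The test of the difference between the steps of the 2 gates called no member of that list.

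Among 33 lysosomal genes 4 were called higher, among them the cholesterol exporter npc1 at 0.61 ± 0.16 (adjusted p = 0.0231). Lower was 1, ctsa at -0.40 ± 0.11 (adjusted p = 0.039). Together they were 15.2% of the list, against 8.02% of all genes. The lysosomal sulfatase gnsa, outside the list, was also called lower, at -0.90 ± 0.16 (adjusted p = 0.00282). Without the third 4 dpf array the list had no call, and without the second 3 dpf, the third 3 dpf or the first 4 dpf array it had 1. The gene ctsa was not called after quantile normalization or without the second 4 dpf array. In the proteasome 1 of 39 was called higher, psmb6 at 0.63 ± 0.18, while after quantile normalization none was higher and 2 were lower. Of 53 heat shock and immediate early genes, which respond to dissociation stress, 1 was called lower, zfp36l1a at -0.89 ± 0.14 (adjusted p = 0.00123), and none higher. Leaving out the second 4 dpf array, 9 heat shock and immediate early genes were called lower and 2 higher.

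Genes of cells outside the digestive organs were measured in the same gate. In the list of cartilage, bone and connective tissue 6 of 38 were called lower and 1 higher, fn1b, a fibronectin, at 1.14 ± 0.25 (adjusted p = 0.0099). The cartilage and notochord collagen col2a1a scored 0.44, 1.10 and 0.19 on the 4 dpf arrays, against 2.14, 1.74 and 2.32 on the 3 dpf arrays. No 4 dpf array reached the 3 dpf range (difference -1.49 ± 0.36, adjusted p = 0.0165). Its partners col11a1a and col9a2 fell, with differences of -1.14 ± 0.19 and -0.97 ± 0.26. So did the matrix protein sparc, at -1.09 ± 0.21, and, outside the list, the collagen chaperone serpinh1b, at -1.15 ± 0.23 (adjusted p = 0.00436). The list's median score was -0.23, -0.22 and -0.24 on the 4 dpf arrays and -0.16, -0.22 and 0.06 on the 3 dpf arrays, with 21 of 38 members below 0 over all arrays. Without the third 3 dpf array 2 members were called lower and without the third 4 dpf array 3.

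Neuron genes were likewise lower where called. Of 47 genes of neurons and glia 9 were called lower and none higher. The neuronal RNA-binding gene elavl3 scored -0.18, -0.14 and -0.11 on the 4 dpf arrays, against 0.70, 0.90 and 0.77 on the 3 dpf arrays. All 4 dpf arrays lay below the 3 dpf arrays, with a difference of -0.93 ± 0.22 (adjusted p = 0.0138). The neural factor zic1 scored 0.02, 0.05 and -0.56 on the 4 dpf arrays, against 0.87, 1.29 and 0.87 on the 3 dpf arrays, a difference of -1.17 ± 0.30 (adjusted p = 0.0239), and the synaptic gene sypa fell by 0.93 ± 0.22 array SD (adjusted p = 0.014). The median score of the list was -0.18, -0.24 and -0.19 at 4 dpf and 0.12, 0.28 and -0.02 at 3 dpf. Without the second 3 dpf array 1 member was called lower, without the third 3 dpf array 3 and without the third 4 dpf array 2. In GFP- cells 17 members were called lower and 1 higher.

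In the epidermis list 3 of 47 genes were called lower and none higher. That was 6.38% of the list, against 3.53% of all genes called lower and 8.02% called either way. The median difference was -0.31. The basal keratin krt5 scored 0.52, 1.35 and 0.61 on the 4 dpf arrays, against 1.75, 2.00 and 2.55 on the 3 dpf arrays, with no overlap and a difference of -1.27 ± 0.26 (adjusted p = 0.00542). The other called members were the keratin krt1-19e at -1.13 ± 0.33 and the claudin cldni at -0.92 ± 0.25. Median scores of the list were 0.27, 0.86 and 0.46 at 4 dpf and 0.78, 0.75 and 1.45 at 3 dpf, which overlap through the second 4 dpf array. Without that array 11 members were called lower, and without the first 4 dpf, the third 4 dpf or the third 3 dpf array 1. The defining basal factor tp63 averaged -0.30 at 4 dpf and -0.10 at 3 dpf. Some keratins and claudins of the list are also expressed in gut epithelium.

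Blood vessel and muscle lists had no called member. Of 14 vessel genes 2 and of 45 muscle genes 3 passed an unadjusted p of 0.05 in limma. Median scores on the 6 arrays stayed between -0.52 and -0.32 for vessels and between -0.41 and -0.29 for muscle. Of 26 leukocyte genes 1 was lower, coro1a at -0.72 ± 0.21, and of 16 red blood cell genes 1 higher, nt5c2l1 at 0.70 ± 0.19. In the gut wall list 1 of 17, tpm4a, was lower at -0.59 ± 0.17. Retina and lens had 1 of 38 lower, six6b at -0.81 ± 0.24. None of these 4 genes was called after quantile normalization, and the 4 lists had no call without the third 4 dpf array. When the second 4 dpf array was left out coro1a was not called either (adjusted p = 0.0515), and 3 genes of the gut wall list were called lower. Of 16 pronephros genes the organic cation transporter slc22a2 rose by 1.04 ± 0.19 and jag2b fell, as given above. Of 15 genes of pharynx, esophagus and swim bladder the 2 lower ones were shha and agr2, and of 16 yolk genes the 2 higher ones were apoea and the cathepsin ctsla, at 0.49 ± 0.13, which was not called after quantile normalization (adjusted p = 0.0881). The part of such cells in the differences above was not tested.

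Several of the largest falls belonged to none of the lists. The transporter-like gene svopl scored -0.10, 0.63 and -0.12 on the 4 dpf arrays, against 1.52, 1.87 and 2.59 on the 3 dpf arrays. The ages were far apart, with a difference of -1.86 ± 0.39 (adjusted p = 0.00699). The apoptosis gene bbc3, or puma, scored -0.08, 0.13 and -0.32 on the 4 dpf arrays, against 1.00, 1.32 and 1.44 on the 3 dpf arrays, a difference of -1.34 ± 0.26 (adjusted p = 0.00441). The autophagy-linked gene tp53inp2a scored 0.46, 0.72 and 0.18 on the 4 dpf arrays, against 1.63, 2.14 and 2.23 on the 3 dpf arrays, a difference of -1.55 ± 0.28 (adjusted p = 0.00253). Neither overlapped between the ages. The sodium pump regulator fxyd6l had the smallest spread of the group, 0.54, 0.36 and 0.32 on the 4 dpf arrays, against 1.40, 1.72 and 1.67 on the 3 dpf arrays, with a difference of -1.19 ± 0.13 and an adjusted p of 4.72e-05. For pttg1ipa, at -1.29 ± 0.32, another probe set differed by -1.19 and 1 more, with a mean score of -0.60, by -0.04 (adjusted p = 0.761).

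Others of the named genes had these values. The guanine deaminase gda scored 2.79, 2.08 and 2.79 on the 4 dpf arrays, against 0.46, 0.26 and 0.15 on the 3 dpf arrays, with a difference of 2.26 ± 0.26 (adjusted p = 8.54e-05). The fatty acid hydroxylase domain gene faxdc2 rose by 1.66 ± 0.23 (adjusted p = 0.000362) and a2m2f, of the alpha-2-macroglobulin family, by 1.80 ± 0.39 (adjusted p = 0.00788). The astacin protease gene c6ast3 scored 2.26, 0.22 and 2.16 on the 4 dpf arrays, against 0.28, -0.34 and -0.12 on the 3 dpf arrays. Its second 4 dpf array lay inside the 3 dpf range, and the difference of 1.61 ± 0.40 (adjusted p = 0.0189) was no longer called under 6 of 16 other settings. The developmental gene mab21l1 fell by 1.24 ± 0.24 array SD (adjusted p = 0.00411).

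The genes called between 3 and 4 dpf were followed on GFP+ arrays of other ages, which do not enter this difference of means but share the fit's estimate of spread. Of the 395 genes called higher at 4 dpf, 389 (98.5%) had a higher mean at 6 dpf than at 2 dpf, against 53.0% of all genes. Of the 310 called lower, 302 (97.4%) had a lower mean at 6 than at 2 dpf, against 47.0% of all genes. Zymogen medians at 2, 3, 4 and 6 dpf were -0.23, -0.24 and -0.26, then 2.37, 1.85 and 2.07, then 3.31, 2.10 and 3.17, then 3.70, 3.78 and 3.82. Each age lay above the one before it, except that the second 4 dpf array lay among those of 3 dpf. The division list stayed level at first, with 0.86, 0.98 and 1.10 at 2 dpf and 0.94, 0.88 and 0.95 at 3 dpf, then 0.56, 0.50 and 0.52 at 4 dpf and 0.15, 0.16 and -0.24 at 6 dpf.

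Mean scores of single genes left the floor of the scale at different ages. Probe brightness can shift that age, and these ages were not compared by a test. The gene pla2g1b averaged -0.56, -0.38, 2.24 and 3.61 at 2, 3, 4 and 6 dpf, at the floor until 3 dpf. The gene ctrb.2, with -0.47, 0.44, 2.85 and 3.63, had begun to rise by 3 dpf. Means of prss1 were above the floor at 2 dpf and rose at each later age, with 2.53, 3.43, 3.96 and 4.26. Hemopexin and apolipoprotein E had their highest means at 4 dpf: hpxa averaged -0.47, -0.55, 1.01 and 0.00, and apoea -0.73, -0.51, 1.46 and 0.72. On the single arrays hpxa scored 1.74, 0.18 and 1.12 at 4 dpf and -0.13, -0.03 and 0.15 at 6 dpf. These last steps are given as levels, with no test.

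**Figure D4:**
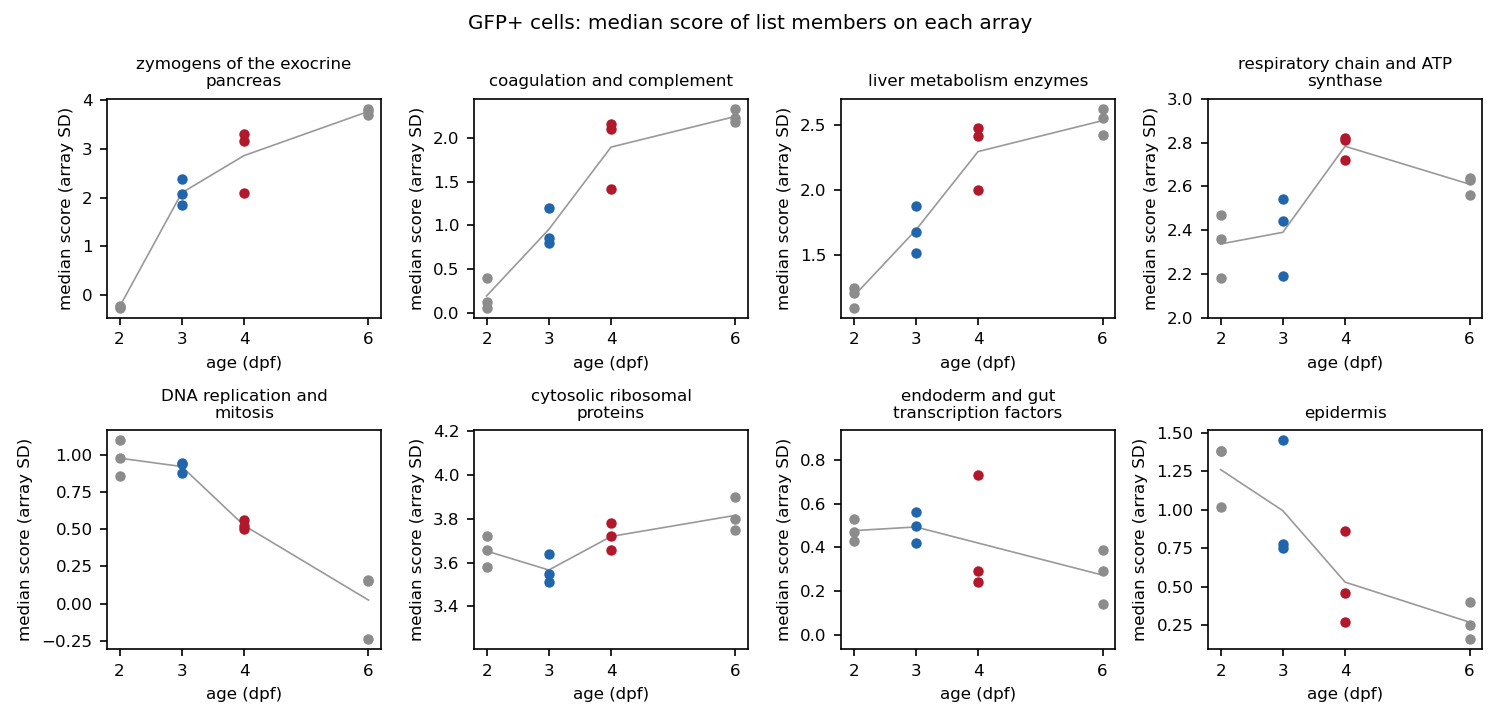
Median score (array SD, vertical) of the members of 8 lists on each GFP+ array at 2, 3, 4 and 6 dpf (horizontal), 3 arrays an age. Points are arrays, with 4 dpf in red and 3 dpf in blue, and lines join the age means. Among the 3 arrays of 4 dpf, the second is the low point of the zymogen and liver lists, at 2.10 for zymogens, and the high point of the endoderm and epidermis lists.

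GFP- cells passed through the same day with fewer calls: 403 of 8793 genes (4.58%), 170 higher (1.93%) and 233 lower (2.65%). By probe set 4.08% were called there, 1.5% higher and 2.57% lower. Of the 395 genes higher in GFP+ cells, 358 (90.6%) had a positive difference in GFP- cells, against 50.3% of all genes, and 66 were called there in the same direction, and 1 in the opposite. Of the 310 lower in GFP+ cells, 265 (85.5%) were also negative in GFP- cells, against 49.7% of all genes, and 40 were called lower. Digestive transcripts were present on some GFP- arrays: the zymogen median was 1.87, 0.14 and 2.53 at 4 dpf and 0.12, 0.02 and -0.16 at 3 dpf. With the third GFP- array at 4 dpf left out, the shares with the same sign were 82.8% and 81.3%, against 52.2% and 47.8% of all genes. Of the 20 zymogen genes 11 were called higher in GFP- cells. Median differences in GFP- and GFP+ cells were 1.47 and 1.09 for zymogens and 1.00 and 0.72 for liver plasma proteins. They were 0.55 and 0.50 for liver metabolism and 0.45 and 0.36 for the intestinal list. Smaller in GFP- cells were clotting and complement (0.48 and 0.63), bile acid and xenobiotic (0.29 and 0.34), apolipoprotein (0.42 and 0.70) and fatty acid medians (0.35 and 0.47). The part of GFP+ cells missed by the gate was not tested.

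The steps of the 2 gates were set against each other directly. This difference, the GFP+ step minus the GFP- step, was called for 33 of 8793 genes (0.375%), 25 positive and 8 negative (0.091%). By probe set 0.316% were called, and the negative ones were 0.071% of those tested. None of the zymogens was among them, and of the liver and lipid lists the clotting factor gene f9a was the only one, at 0.94 ± 0.16 (adjusted p = 0.0294). Pantothenate kinase, pank1a, which starts coenzyme A synthesis, scored 1.03, 0.60 and 1.27 on the 4 dpf arrays, against -0.24, 0.03 and -0.03 on the 3 dpf arrays in GFP+ cells. In GFP- cells it scored 0.40, 0.56 and 0.84 at 4 dpf and 0.58, 0.62 and 0.61 at 3 dpf. The step in GFP+ cells was 1.05 ± 0.14, that in GFP- cells -0.01 ± 0.14, and they differed by 1.05 ± 0.20 (adjusted p = 0.0349). The growth hormone receptor gene ghrb, picked after its values were seen, had steps of 1.12 ± 0.14 in GFP+ and 0.15 ± 0.14 in GFP- cells (difference 0.97 ± 0.20, adjusted p = 0.0465).

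Of the 6 largest positive differences 5 came from genes that fell in GFP- cells. The alpha tubulin gene tuba2 scored 0.85, 0.03 and 0.79 at 4 dpf and 2.12, 1.55 and 1.81 at 3 dpf in GFP- cells, and 0.69, 0.61 and 0.85 and 0.35, 0.28 and 0.27 in GFP+ cells. Its steps differed by 1.68 ± 0.27 (adjusted p = 0.0253), while its other 2 probe sets did not pass. The synaptic vesicle gene syn1, the neural factor lhx9, rundc3ab and the adhesion gene negr1 followed, with 1.52 ± 0.28, 1.22 ± 0.23, 1.10 ± 0.22 and 1.04 ± 0.20. None of these 5 was called between the ages in GFP+ cells, where lhx9, rundc3ab and negr1 had means below 0 at both ages.

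The 6 genes named for negative differences were called lower in GFP+ cells and had positive differences in GFP- cells, none of them called. The calcium-binding gene s100z scored -0.41, 0.36 and 0.14 on the 4 dpf arrays, against 0.84, 1.46 and 2.21 on the 3 dpf arrays in GFP+ cells, a difference of -1.47 ± 0.34 (adjusted p = 0.013). In GFP- cells it scored 0.96, 0.68 and 1.09 at 4 dpf and -0.32, 0.10 and 0.21 at 3 dpf, a difference of 0.91 ± 0.34 (adjusted p = 0.164), and the steps differed by -2.39 ± 0.49 (adjusted p = 0.0383). The G protein regulator rgs2 scored -0.30, 0.29 and -0.06 on the 4 dpf arrays, against 0.99, 1.52 and 1.81 on the 3 dpf arrays in GFP+ cells, with no overlap and a fall to near 0 (difference -1.46 ± 0.25, adjusted p = 0.00184). Its step differed from that in GFP- cells by -1.89 ± 0.35 (adjusted p = 0.034). The cytokine signalling inhibitor socs1a, the glutamine synthetase glulb, the lysosomal sulfatase gnsa and the exchange factor arhgef7a followed, with -1.30 ± 0.25, -1.20 ± 0.22, -1.13 ± 0.23 and -0.97 ± 0.19. The steps in GFP- cells were 0.43 for rgs2, 0.32 for socs1a, 0.24 for gnsa and 0.35 for arhgef7a. For glulb the step was -0.66 ± 0.15 in GFP+ cells. In GFP- cells it was 0.54 ± 0.15 (adjusted p = 0.0514, and 0.0411 after quantile normalization). Another probe set of rgs2, socs1a and glulb gave -1.30, -0.70 and -1.27, none passing (adjusted p = 0.102, 0.206 and 0.247). With the probe sets of a gene averaged, socs1a and glulb lost the call. After quantile normalization 6 of the 12 genes named here were not called, lhx9, rundc3ab, negr1, s100z, gnsa and arhgef7a, and with only the 12 arrays compared none was. These calls rested on few arrays: without 1 array the count of probe sets, 49 in all, ranged from 2 to 244. It was 2 without the second 3 dpf, the third 3 dpf or the third 4 dpf GFP+ array or the first 3 dpf GFP- array, 6 without the first 4 dpf GFP+ array, 20 without the third 3 dpf GFP- array, 25 without the second 4 dpf GFP- array, 86 without the first 4 dpf GFP- array and 244 without the second 4 dpf GFP+ array.

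**Figure D5:**
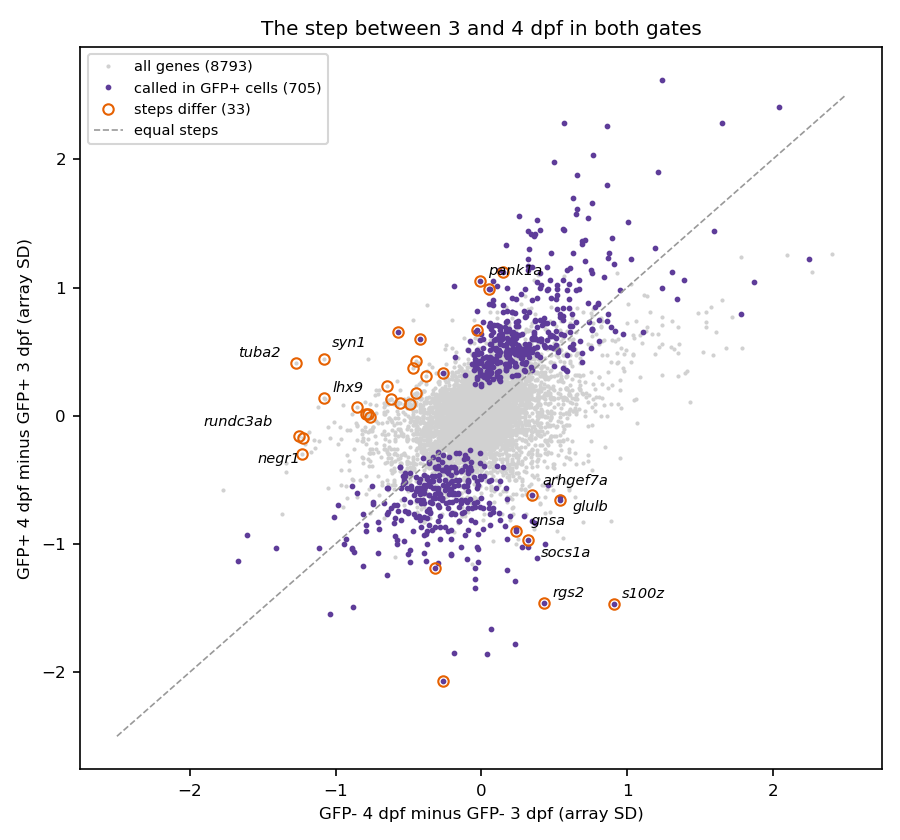
Difference between 4 and 3 dpf in GFP+ cells (vertical) against that in GFP- cells (horizontal), in array SD, for 8793 genes. Purple points are the 705 genes called in GFP+ cells, orange rings the 33 whose steps differ between the gates, and the dashed line marks equal steps. Labelled rings far left are genes that fell in GFP- cells, and those low on the right, such as s100z and rgs2, fell in GFP+ cells.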

How the data were processed

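Arrays of sorted cells were read from the series' table of values, in which the authors deposited a score for each probe set and array. RMA was used by the authors, per the submitters' processing notes. Its log base, and how each array came to a median of 0 and an SD of 1, are stated in none of the labels or headers.

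Of 15617 probe sets 115 controls were left out. The platform annotation named 10795 probe sets by 1 symbol and 135 by several, with 4572 left unnamed, and 8793 genes were represented by the probe set with the highest mean over 24 arrays. A model with 8 group means was fitted to all arrays with limma 3.58.1 in R 4.3.3, using two-sided moderated tests with Benjamini-Hochberg adjustment over 15502 probe sets. It had 16 residual and 3.59 prior degrees of freedom. An exact permutation of 3 arrays against 3 cannot go below p = 0.1, so calls rest on this model. Precision is limited by the number of arrays, since intensities carry no read depth.

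Named are the 15 largest called differences each way and, where the steps of the gates differed, the 6 largest each way, passing over placeholder symbols. Members of 33 gene lists may be named as examples, called or not. The members and lists were chosen with earlier results of these data known, and some genes stand in more than 1 list. No probe sequence or coordinate was used. In simulated data with this layout and 15502 probe sets, differences of 0.5, 1 and 2 array SD were recovered for 37.3% of 67, 94% of 67 and 100% of 66 probe sets, and 7 of 161 calls were false. The simulated noise was independent, with the same spread in every group and no array that stood apart, so these values may be too favorable. Calls in the data were more, 1068, so the adjusted threshold was stricter in the simulation, which works the other way. Alternatives were quantile normalization, fits on fewer arrays, a robust prior with trend, array weights, a minimum mean score of 0, a minimum difference of 1 array SD, replicate blocks, averaging the probe sets of a gene, and leaving out each array. Quantile normalization without the second 4 dpf array was added after seeing the data.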

Additional observations from a re-analysis of the deposited data

Results flagged for a closer look

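For 12 genes the step between 3 and 4 dpf differed between GFP+ and GFP- cells by the test of that difference itself, with limma and 3 arrays in each of the 4 groups. The GFP+ step minus the GFP- step was 1.68 array SD for tuba2 (adjusted p = 0.0253), 1.52 for syn1, 1.22 for lhx9, 1.10 for rundc3ab, 1.05 for pank1a (adjusted p = 0.0349) and 1.04 for negr1. It was -2.39 for s100z (adjusted p = 0.0383), -1.89 for rgs2, -1.30 for socs1a, -1.20 for glulb, -1.13 for gnsa and -0.97 for arhgef7a. These 12 were the 6 largest each way among 33 genes called. Over the values with 1 array left out, 87 of 144 were no longer called, and each of the 12 genes lost the call at least once. Further probe sets of tuba2, rgs2, socs1a and glulb did not pass this test. After quantile normalization 6 of the 12 were not called, with adjusted p of 0.0786 for lhx9, 0.0905 for rundc3ab, 0.0634 for negr1, s100z and arhgef7a and 0.0523 for gnsa. With only the 12 arrays compared none was called, at adjusted p of 0.134 to 0.285.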

How the results depend on the processing

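For GFP+ cells, 1068 probe sets were called. The count was 3020 with array weights, 665 with only the 12 GFP+ arrays, 218 with only the 6 arrays compared and 167 with a minimum difference of 1 array SD, and 338 to 1565 when 1 array was left out. It was 995 after quantile normalization, 820 of them shared with the deposited scaling, 1035 with a trend and robust prior, 1063 of 8060 with a mean score of at least 0, and 1561 after quantile normalization without the second 4 dpf array. For GFP- cells 632 were called: 1120 with array weights, 118 with a minimum difference of 1 array SD, 224 to 946 with 1 array left out, and 0 with only their own 6 arrays, where 2088 passed an unadjusted p of 0.05 in limma. The difference between the steps gave 49: 306 with array weights, 8 with a mean score of at least 0, 25 after quantile normalization, 23 with a minimum difference of 1 array SD, 2 to 244 with 1 array left out, and 0 with only the 12 arrays compared, where 1376 passed an unadjusted p. With the replicate block by number 1017, 601 and 27 probe sets were called in these 3 comparisons, and with the replicate block of both gates 1072, 633 and 50. Same-numbered GFP+ arrays of 4 and 3 dpf had residual correlations of 0.015, 0.025 and -0.118, and pairs of other numbers -0.098 to 0.144. So few values cannot settle whether the numbers pair the ages. Same-numbered GFP+ and GFP- arrays had 0.081, 0.312 and 0.300 at 4 dpf and 0.144, -0.044 and 0.178 at 3 dpf. Gate pairs of other numbers ranged from -0.297 to 0.173 at 4 dpf and from -0.195 to 0.055 at 3 dpf. The replicate block by number ended the call of the step difference for pank1a and socs1a (adjusted p = 0.0525) and for s100z and gnsa (0.0558), and the block of both gates for none of the 12 named genes. The causes of these shifts were not tested.

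None of the 30 genes named for GFP+ cells changed direction under any of these settings. The call was lost in 23 of 180 values with 1 array left out and in 16 of 299 others. With only the 6 arrays compared it was lost for pla2g1b, apoea, amy2a, cpa1, c6ast3, f7i, hpxa, gpa33a, s100z, pttg1ipa, krt5, mab21l1 and serpinh1b. In that setting 1 zymogen, 4 plasma protein, 1 liver metabolism and 3 respiratory chain genes were called higher, and 7 of the bile acid and xenobiotic list. The scores carry no detection calls, so signal over background is unknown and low genes are limited by the floor of the scale.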

Other observations

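Some further genes that moved between 3 and 4 dpf were looked at after their values were seen. Among sterol synthesis enzymes, the demethylase gene cyp51 scored 1.43, 1.02 and 1.95 on the 4 dpf arrays, against 0.39, -0.14 and -0.21 on the 3 dpf arrays, a difference of 1.45 ± 0.31 (adjusted p = 0.00715). A later enzyme, msmo1, scored 1.42, 1.22 and 1.83 on the 4 dpf arrays, against 0.35, 0.21 and 0.10 on the 3 dpf arrays, a difference of 1.27 ± 0.21 (adjusted p = 0.00168). The other 3 probe sets of cyp51 differed by 1.53, 0.44 and 0.38, of which the first was called. Both genes were separate between the ages and had lower means at 6 dpf, 0.46 and 0.70. The earlier enzyme fdft1 differed by 0.33 ± 0.16 (adjusted p = 0.237) and the last enzyme, dhcr7, by 0.30 ± 0.17 (adjusted p = 0.319), neither passing. The genes fdps and nsdhl of the same pathway were called, with differences of 0.71 and 0.85 without the second 4 dpf array. The ether lipid enzyme agmo rose by 1.37 ± 0.15 (adjusted p = 3.98e-05) and mitochondrial arginase, arg2, by 1.18 ± 0.16 (adjusted p = 0.000338). The diamine oxidase aoc1 scored 0.23, 1.78 and 0.35 on the 4 dpf arrays, against -0.01, -0.33 and -0.64 on the 3 dpf arrays and 0.10, -0.33 and -0.57 at 6 dpf, highest at 4 dpf. Without the second 4 dpf array the difference of aoc1 was 0.62 and not called (adjusted p = 0.0594).

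Of 48 cytochrome P450 genes 12 were called higher at 4 dpf and none lower, with 13 higher after quantile normalization, so that 25% of them were called against 8.02% of all genes. Of 139 solute carriers 10 were higher and 2 lower, 8.63% in all and near that share. Of 18 sox genes 3 were called lower and none higher (16.7%): sox11a at -1.07 ± 0.22, sox4a at -0.80 ± 0.22 and sox11b at -0.79 ± 0.17. Other probe sets of sox11a differed by -1.10 (called) and -0.37, and those of sox11b by -0.66 and 0.10, neither called. These factors are known from neural progenitors. In GFP- cells sox11b differed by -1.01 ± 0.17 (adjusted p = 0.00194). Of 42 hox genes 0 were called by limma, and 1 passed an unadjusted p of 0.05. The largest fall among all 8793 genes was that of an uncharacterized one, si:dkey-239j18.3, which scored 0.80, 1.72 and 0.53 on the 4 dpf arrays, against 2.65, 3.29 and 3.33 on the 3 dpf arrays in GFP+ cells, a difference of -2.07 ± 0.27 (adjusted p = 0.000196). Its scores in GFP- cells were 0.26, 0.11 and -0.31 at 4 dpf, against 0.29, -0.14 and 0.69 at 3 dpf. The steps differed by -1.81 ± 0.38 (adjusted p = 0.0465).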
